A study of Mus musculus with 6 samples.

Results

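The interleukin-1 family cytokines and receptors described here are 8 genes chosen by name: the ligand genes Il1b, Il1a and Il18, the antagonist and binding protein genes Il1rn and Il18bp, and the receptor genes Il1r1, Il1rap and Il1r2. Each name matched a single row of the deposited table, so the members were 8 of its 54532 genes. IL-1α and IL-1β bind the receptor IL-1R1, which recruits the accessory protein encoded by Il1rap and signals through MyD88 to NF-κB. The receptor antagonist and the decoy receptor IL-1R2 limit that signal, and IL-18 binding protein does the same for IL-18. In macrophages, bacterial products induce the ligand genes, and the NLRP3 inflammasome activates caspase-1, which cleaves the precursors of IL-1β and IL-18. Transcript levels therefore report precursor mRNA and not secreted cytokine.

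RNA-seq profiled poly-A RNA of peritoneal macrophages from wild-type (WT) male C57BL/6J mice, 6 to 8 weeks old, in a study of muscone and NLRP3 inflammasome activation. The macrophages were lavaged 5 days after an injection of thioglycolate, an irritant that recruits them to the peritoneum, and were plated overnight, with no sorting step described. Control cells received no treatment. Model cells were primed with 500 ng/mL LPS, an outer membrane lipid of bacteria, for 5.5 h and then received 2 mM ATP, which triggers the inflammasome, for 0.5 h. In MUS, 50 μM muscone, a macrocyclic ketone from musk, was added 5 h after LPS, with priming and ATP as in Model. All groups thus share the elicitation, and Control lacks both LPS and ATP, so the effects of these agents cannot be told apart. Muscone acted on cells that LPS had already primed. Each group had 2 libraries, and the labels give replicate 1 of every group batch 1 and replicate 2 batch 2. Nothing in the sources says that the replicates came from separate animals or cultures, so p-values measure the spread between these libraries, which may be technical.

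Levels were deposited as FPKM, fragments per kilobase of gene and a per-library total. Multiplied by gene length, the values were whole multiples of a single step in each library, which returned the number of fragments behind them. Fragments on genes summed to 15742538 and 17135442 in the Control libraries, 15529580 and 15526321 in the Model libraries, and 16222724 and 16481372 in the MUS libraries. The library total used as divisor was 1.45 and 1.34 times these sums in Control but 0.909 to 0.998 times in Model and MUS. The study's methods describe FPKM as scaled to mapped reads, but the divisor lies below the fragments on genes in Model and MUS. FPKM summed to 233863 and 237698 in Control against 301384 to 391736 in the other libraries. Median-of-ratios factors computed on the FPKM were between 0.990 and 1.01, so the deposited values already lie close to that scale, from which TPM scaling moves them. Comparisons with Control therefore depend on the scaling, and rescaling each library to the same total (TPM) moved the median log2 fold change of all tested genes by -0.43 in Model vs. Control and by -0.33 in MUS vs. Control. Gene positions are those of build GRCm38, although the submitters' processing notes name GRCm39.

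The labelled cell type was compared with marker genes. All 9 macrophage markers passed the filter on low values, with a summed level between 9591 and 14300 FPKM, led by Lyz2. Of 11 neutrophil markers, S100a9, Ly6g, Retnlg and Elane had no fragment in any library, and S100a8 was the most abundant. The neutrophil sum was 20.6 and 34.4 FPKM in Control, with 114 and 61.3 in Model and with 69.3 and 55.3 in MUS, most of it S100a8, at 13.5 and 30.6, 110 and 56.5, and 64.0 and 50.3 FPKM. S100a8 was called higher in Model vs. Control (log2 fold change 1.90, limma adjusted p = 0.0365), a call that ended after TPM scaling, after quantile normalization, with no filter, with only the 2 groups compared, and without Control replicate 1, Model replicate 1 or either MUS replicate. Mmp8, the other tested neutrophil marker, was at 6.62 and 3.48 FPKM in Control and 2.63 and 3.65 FPKM in Model (log2 fold change -0.51, not called). The neutrophil markers thus did not move together, and their part in the results below was not tested. Summed markers stayed between 0.753 and 1.87 FPKM for B cells (5 genes), 0.234 and 1.64 for T and NK cells (8 genes), 0.234 and 1.20 for mast cells (7 genes) and 1.12 and 2.22 for dendritic cells (5 genes). Eosinophil markers (5 genes, led by Siglecf, with Prg2 and Epx at 0) summed to 4.19 and 2.95 FPKM in Control and 1.63 to 2.13 in the other libraries. Fibroblast and mesothelial markers (7 genes, led by Col1a1) summed to between 11.9 and 22.7 FPKM. Single markers moved within these sums. Dcn, a fibroblast marker, was at 2.07 and 3.13 FPKM in Control and 7.5 and 6.64 FPKM in Model, and limma called it higher (log2 fold change 1.18, adjusted p = 0.0161), although not after TPM scaling, with no filter, with only the 2 groups compared, or without Control replicate 1, Model replicate 1 or either MUS replicate. Among macrophage markers limma called Csf1r lower in Model vs. Control (log2 fold change -1.37, adjusted p = 0.0289) and Cd14 and Fcgr1 higher (2.64 and 3.57, adjusted p = 0.0258 and 0.00326). The calls of Csf1r and Cd14 ended when any single Model or MUS library was left out, with no filter and with only the 2 groups compared, and that of Cd14 also without Control replicate 1 and after quantile normalization.

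Control replicate 2 stood apart from Control replicate 1 in LPS-responsive genes. All 15 tested genes in a list of other LPS-induced cytokines and enzymes were higher in Control replicate 2, with a median difference of 2.79 on the log2(FPKM + 1) scale, and so were all 12 NF-κB subunit and feedback genes, with a median of 1.74. Over all 9794 tested genes the median difference was 0.04, with 5213 higher in replicate 2 and 5.93% over 2-fold higher on that scale. In the 2 lists, 12 of the 15 and 9 of the 12 were over 2-fold higher. Tnf was at 8.62 and 183 FPKM in Control replicates 1 and 2, and Cxcl10 was at 0.505 and 29.2 FPKM. Across genes, log2(FPKM + 1) of Control replicate 2 correlated with the Model and MUS libraries at r = 0.831 to 0.872, against 0.695 to 0.745 for Control replicate 1, although genes are not independent replicates. Model replicate 1 had a fragment on 24906 genes, against 17406 to 19200 in the other libraries, and correlated with Model replicate 2 and the MUS libraries at r = 0.928 to 0.944, against 0.958 to 0.981 among those. Mitochondrial genes took 1.51% and 1.39% of the fragments in Control and 0.206% to 0.497% in the stimulated libraries. The cause of these differences was not tested, and the changes of the members in Model vs. Control, and the counts of calls in that comparison, are given with both Control replicates and without each.

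Differences were tested with limma on log2(FPKM + 1) for the 9794 genes with a mean of at least 1 FPKM, in 1 model of all 6 libraries. Calls required a p of at most 0.05 after Benjamini-Hochberg adjustment together with a log2 fold change above 1 in either direction. Adding 1 makes the fold change of a weakly expressed gene smaller than the ratio of its means. With 2 libraries against 2, exact permutation of the labels of any gene never reaches below p = 0.33, so every p below rests on the spread that limma pools across genes. The filter kept 7 of the 8 members and dropped Il1r2. The 7 also had a mean of at least 1 FPKM in Control alone, the lowest being 1.56 for Il1rap.

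Model vs. Control asks what LPS and ATP did to the family. Of the 7 members tested, 6 were called, all higher in Model, where limma called 9.5% of all tested genes higher and 15.1% in either direction (1475 genes, 930 higher and 545 lower). The called members were Il1b, Il1a, Il18, Il1rn, Il1rap and Il18bp, and Il1r1 missed both thresholds. With no filter on low values, limma kept the call of Il1rn alone among 8 members, with adjusted p = 0.0707 for Il1b, 0.0662 for Il1a and 0.0616 for Il18. The median log2 fold change of the 7 members was 3.79, against 0.04 over all tested genes. Without Control replicate 1 limma called 4 of the 7 members, and without Control replicate 2 it called 6. Over all genes it called 763 and 2077 without Control replicates 1 and 2, 692 without Model replicate 1, and 800 and 797 without MUS replicates 1 and 2. The balance of calls over all genes followed the scaling, with 596 higher and 1432 lower after TPM scaling and 707 higher and 715 lower after quantile normalization. In bulk RNA, a change in the number of expressing cells and a change in RNA per cell cannot be told apart.

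**Figure D1:**
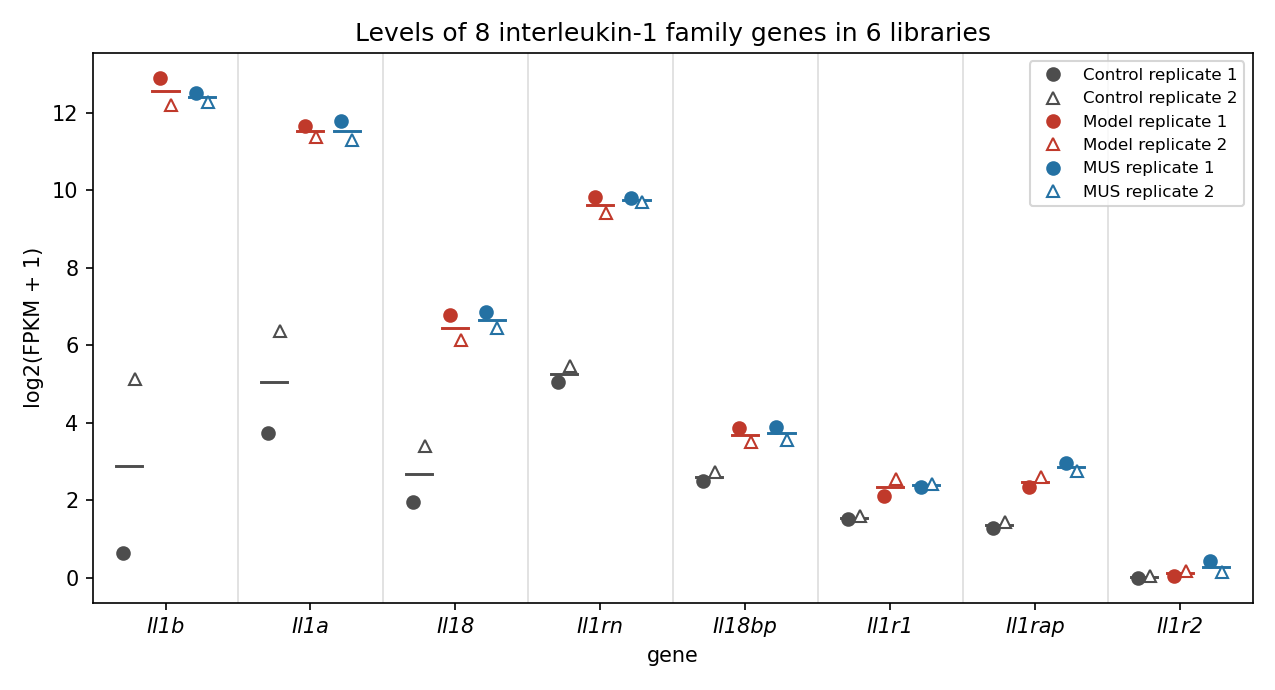
Levels of the 8 members in each of the 6 libraries, as log2(FPKM + 1) on the vertical axis, with a circle for replicate 1, a triangle for replicate 2 and a bar for the mean of the 2 libraries of a group. The 4 Model and MUS libraries lie above both Control libraries for the 7 tested members. Il1r2 stays near 0, on at most 10 fragments in a library. The Control replicates lie far apart for Il1b, at 0.550 and 34.2 FPKM.

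Il1b (ENSMUSG00000027398, chromosome 2, 129364570 to 129371139, minus strand) encodes the main secreted IL-1 ligand of macrophages. It was at 0.550 and 34.2 FPKM in Control replicates 1 and 2, 7646 and 4750 FPKM in Model, and 5832 and 5003 FPKM in MUS. Stimulated libraries were far above both Control libraries, while the Control libraries themselves differed more, as a ratio, than any other replicate pair of this gene. As mean ± SD (n = 2), Control had 17.4 ± 23.8 FPKM, Model 6198 ± 2048 and MUS 5418 ± 587. In Model vs. Control, limma gave a log2 fold change of 9.67 (standard error 1.26, 95% interval 6.69 to 12.65, limma adjusted p = 0.00488). Within batch 1 the log2 difference was 12.27 and within batch 2 it was 7.08, and the fitted value was 7.42 without Control replicate 1 and 11.92 without Control replicate 2. The size of the increase thus rested on which Control library was used, and its direction and call did not. Il1b ranked 3 by FPKM among all genes in each of the 4 stimulated libraries, and 11098 and 975 in the Control libraries. It took 1.33% of the fragments on genes in Model replicate 1 (95% Wilson interval 1.32 to 1.33%, counting error only) and 0.904%, 1.04% and 0.940% in Model replicate 2 and MUS replicates 1 and 2. In Control replicate 1 it rested on 24 fragments, and in Control replicate 2 on 1492.

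Il1a (ENSMUSG00000027399, chromosome 2, 129299610 to 129309972, minus strand) encodes IL-1α, which is active without caspase-1 cleavage. Its levels were 12.4 and 82.0 FPKM in Control, 3255 and 2658 FPKM in Model, and 3533 and 2518 FPKM in MUS. The groups did not overlap between Control and either stimulated group, and Control replicate 2 was again the higher one. Model vs. Control had a log2 fold change of 6.46 (standard error 0.79, limma adjusted p = 0.00408), with 5.15 without Control replicate 1 and 7.78 without Control replicate 2. Among all genes Il1a ranked between 7 and 14 in the stimulated libraries.

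Il18 (ENSMUSG00000039217, chromosome 9, 50554827 to 50581840, plus strand) encodes the other family ligand that caspase-1 processes. It was present at 2.84 and 9.45 FPKM in Control, 109 and 68.9 FPKM in Model, and 115 and 85.4 FPKM in MUS. Stimulated levels lay above both Control libraries and were far below those of Il1a and Il1b per length. Model vs. Control gave a log2 fold change of 3.79 (standard error 0.50, limma adjusted p = 0.00507), with 3.07 without Control replicate 1 and 4.51 without Control replicate 2.

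Il1rn (ENSMUSG00000026981, chromosome 2, 24336853 to 24351494, plus strand) encodes the receptor antagonist, which occupies IL-1R1 without signalling. Its levels were 32.0 and 43.0 FPKM in Control, 904 and 681 FPKM in Model, and 898 and 837 FPKM in MUS. Control replicates were closer together than for the ligands, and all stimulated libraries were higher. Model vs. Control reached a log2 fold change of 4.36 (standard error 0.35, limma adjusted p = 0.00126), and it stayed between 4.16 and 4.57 when any single library was left out. Il1rn kept its call in all 16 alternatives run for Model vs. Control and for MUS vs. Control.

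Il18bp (ENSMUSG00000070427, chromosome 7, 102014885 to 102018690, minus strand) encodes the soluble protein that captures IL-18. It was at 4.65 and 5.56 FPKM in Control, 13.5 and 10.4 FPKM in Model, and 13.8 and 10.8 FPKM in MUS. Both stimulated groups were above Control, by a margin much smaller than that of Il18. Against Control, the log2 fold change in Model was 1.08 (standard error 0.25, limma adjusted p = 0.0285), just over the fold threshold. After TPM scaling the call was lost (log2 fold change 0.60, limma adjusted p = 0.0982, or 0.99 above the median of all genes), as it was after quantile normalization (0.98, limma adjusted p = 0.0348), with no filter and with only the 2 groups compared (limma adjusted p = 0.109 and 0.0689). It was also lost without Control replicate 1, Model replicate 1, MUS replicate 1 or MUS replicate 2 (limma adjusted p = 0.133, 0.107, 0.0701 and 0.0706). The log2 fold change was 0.97 without Control replicate 1 and 1.19 without Control replicate 2.

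Il1rap (ENSMUSG00000022514, chromosome 16, 26581704 to 26730117, plus strand) encodes the accessory chain that IL-1R1 needs to signal. Its levels were 1.42 and 1.69 FPKM in Control, 4.10 and 5.02 FPKM in Model, and 6.81 and 5.70 FPKM in MUS, from 370 to 1169 fragments per library. Control libraries were lowest and MUS libraries highest. Model exceeded Control by a log2 fold change of 1.12 (standard error 0.21, limma adjusted p = 0.0152). After TPM scaling it was 0.74 (limma adjusted p = 0.0764, or 1.13 above the median of all genes), and without Control replicate 1 or Model replicate 2 it was 1.04 and 1.00 (limma adjusted p = 0.0871 and 0.0494). None of these passed both thresholds, nor did the fit with no filter (limma adjusted p = 0.0815). Without Control replicate 2 the call held, at 1.19 (limma adjusted p = 0.0291).

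Il1r1 (ENSMUSG00000026072, chromosome 1, 40225080 to 40317257, plus strand) encodes the signalling receptor. It was at 1.86 and 2.01 FPKM in Control, 3.33 and 4.88 FPKM in Model, and 4.08 and 4.37 FPKM in MUS. All 4 stimulated libraries were above both Control libraries. The log2 fold change of 0.78 (standard error 0.22, limma adjusted p = 0.0546) did not pass the test in Model vs. Control. With a pseudocount of 0.1 in place of 1 it was called, at 1.03 (limma adjusted p = 0.0497), and in none of the other 14 alternatives. Leaving out Control replicate 1 or 2 gave 0.75 and 0.82.

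Il1r2 (ENSMUSG00000026073, chromosome 1, 40074079 to 40125231, plus strand) encodes the decoy receptor, which binds IL-1 without signalling. It had 0 and 1 fragments in Control, with 1 and 4 in Model and with 10 and 3 in MUS, or 0, 0.0229, 0.0371, 0.135, 0.347 and 0.0968 FPKM. At this depth the limit that a count of 0 allows, 3 fragments, is 0.0688 FPKM in Control replicate 1, and a difference between the groups was not detectable. The signalling receptor had between 270 and 481 fragments per library.

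Per length, the order of the members differed between the groups. In the Model and MUS libraries it was Il1b, Il1a, Il1rn, Il18, Il18bp, Il1rap, Il1r1 and Il1r2 in every library. Il1rap and Il1r1, at 4.56 ± 0.65 and 4.10 ± 1.10 FPKM in Model (SD, n = 2), did not differ beyond their spread there. In Control replicate 1 Il1rn was the most abundant member and Il1b was above Il1r2 only, while in Control replicate 2 Il1a came first, followed by Il1rn and Il1b. The 8 members together took 0.0360% and 0.0699% of the fragments on genes in Control, with 2.38% and 1.82% in Model and with 2.17% and 1.91% in MUS.

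Ratios within a library do not depend on that divisor, but which gene of a pair comes out higher depends on the gene lengths used. The ratio of Il1b to Il1rn FPKM was 0.0172 and 0.795 in Control, with 8.46 and 6.97 in Model and with 6.50 and 5.98 in MUS. Ligand exceeded antagonist transcript in every stimulated library and in neither Control library. The ratio of Il1a to Il1rn was 0.387 and 1.91 in Control, with 3.60 and 3.90 in Model and with 3.94 and 3.01 in MUS. Per length, Control replicate 2 thus also had more Il1a than Il1rn, although in fragments it had less, at 3703 against 5444. The ratio of Il18 to Il18bp was 0.611 and 1.70 in Control, with 8.10 and 6.62 in Model and with 8.31 and 7.92 in MUS. For both Il1b to Il1rn and Il18 to Il18bp the stimulated libraries did not overlap Control. In the receptor pair, the ratio of Il1rap to Il1r1 was 0.768 and 0.844 in Control, with 1.23 and 1.03 in Model and with 1.67 and 1.30 in MUS. These ratios rest on lengths of 11360 bases for Il1rap and 6363 for Il1r1. In fragments Il1rap exceeded Il1r1 in every library, with 370 and 440 against 270 and 292 in Control. The Il1r2 to Il1r1 ratio is not interpreted, since Il1r2 had at most 10 fragments.

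MUS vs. Model asks whether muscone, added after priming, changed these transcripts. None of the 7 tested members was called by limma, where 0% of all 9794 tested genes were called. Unadjusted p was under 0.05 for 825 genes and for 0 members, and voom with limma on the recovered fragments also called 0 genes. With the replicate block, which compares libraries of the same batch, 4 genes were called, with only the 2 groups compared 7, without Control replicate 1 or 2 in each case 5, and without Model replicate 2 31. None of these calls was a member.

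Il1b was at 7646 and 4750 FPKM in Model and at 5832 and 5003 FPKM in MUS, so the MUS libraries lay between the Model libraries. The log2 fold change was -0.16, with a 95% interval from -3.14 to 2.82 (limma adjusted p = 0.988), which spans a change from 0.114 to 7.06 times. Within batch 1 the log2 difference was -0.39 and within batch 2 it was 0.07. That interval includes the spread of the Control libraries, and it ran from -1.19 to 0.87 with only Model and MUS in the fit, from -1.07 to 0.76 without Control replicate 1 and from -1.03 to 0.71 without Control replicate 2. For Il1a, Il18, Il1rn and Il18bp the libraries of the groups also overlapped, and the log2 fold changes were 0.02, 0.19, 0.14 and 0.04 (limma adjusted p = 0.996, 0.956, 0.950 and 0.983). The narrowest of these intervals, that of Il18bp, ran from -0.55 to 0.63. Il1r1 had a log2 fold change of 0.05 (limma adjusted p = 0.972), and its MUS libraries lay between the Model libraries.

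Il1rap was at 4.10 and 5.02 FPKM in Model and 6.81 and 5.70 FPKM in MUS, the only tested member without overlap there. Such a separation of 2 libraries from 2 has an exact permutation p of 0.33, and its share over all tested genes was not counted. The log2 fold change of Il1rap was 0.38 (95% interval -0.11 to 0.88, limma adjusted p = 0.699), higher in both batches by 0.61 and 0.15. The difference did not pass the test under any of the 15 alternatives (adjusted p from 0.322 to 1).

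**Figure D2:**
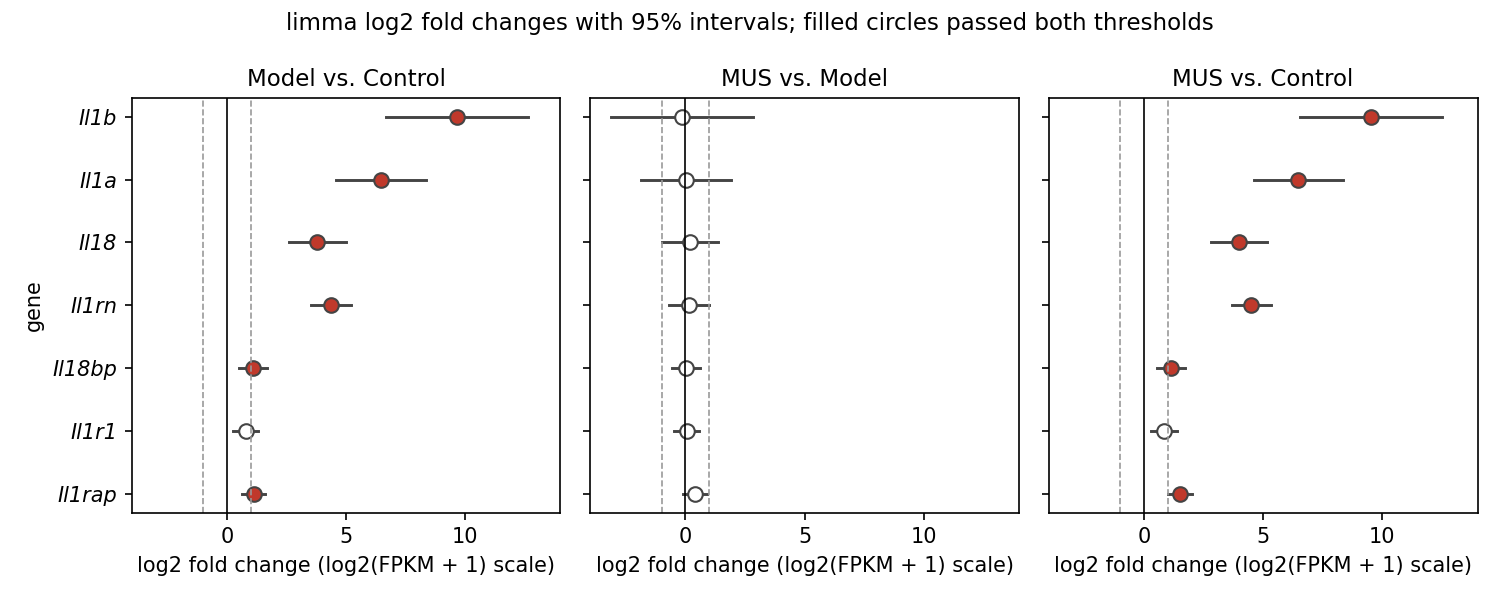
limma log2 fold changes of the 7 tested members (horizontal axis, on the log2(FPKM + 1) scale) in the 3 comparisons, with lines for 95% intervals, dashed lines at -1 and 1, and filled circles for calls. Both comparisons with Control show 6 filled circles, Il1b at 9.67 and 9.51 the farthest to the right, and the MUS vs. Model panel shows none.

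MUS vs. Control shares its libraries with the comparisons above. Here 6 of the 7 tested members were called, all higher in MUS, where limma called 11.3% of tested genes higher and 20.2% in either direction (1980 genes, 1107 higher and 873 lower, or 765 and 1623 after TPM scaling and 885 and 1102 after quantile normalization). The log2 fold changes were 9.51 for Il1b, 6.48 for Il1a, 4.51 for Il1rn, 3.98 for Il18, 1.5 for Il1rap and 1.12 for Il18bp. Without Control replicates 1 and 2 they were 7.26 and 11.77 for Il1b, 5.17 and 7.80 for Il1a, and 3.26 and 4.70 for Il18. Il1r1, at 0.83 (limma adjusted p = 0.0367), passed the p threshold and not the fold threshold, which it passed with a pseudocount of 0.1 and with voom (1.09 and 1.08). Over all genes limma called 1082 and 2398 without Control replicates 1 and 2, and 184 and 719 without MUS replicates 1 and 2. Without MUS replicate 1 Il1rn was the only member called, and Il1a, Il1b, Il18 and Il1rap had log2 fold changes of 6.24, 9.40, 3.77 and 1.39 with adjusted p just past the threshold (limma, 0.0515, 0.0540, 0.0540 and 0.0681). With no filter on low values, limma called Il1rn, Il18 and Il1rap, with adjusted p = 0.0568 for Il1b and 0.0512 for Il1a. Without MUS replicate 1 Il18bp lost its call (limma adjusted p = 0.180), and also without Control replicate 1, without MUS replicate 2 (limma adjusted p = 0.0919 and 0.0766) and after TPM scaling (limma adjusted p = 0.0511).

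Of 13 other IL-1 family genes in the table, which code for IL-33, the IL-36 group and related receptors, 4 were tested and 3 were called higher in Model vs. Control (median log2 fold change 1.22). The 3 were Il33, Il1f6 and Il1f9, with Control means of 0.106, 0 and 0.822 FPKM, so they passed the filter on low values through the stimulated libraries, and the count says little beyond that. Il1f6, which encodes IL-36α, had 0 FPKM in both Control libraries, 2.25 and 1.53 FPKM in Model, and 1.42 and 2.16 FPKM in MUS. Il1f9, which encodes IL-36γ, was at 0.159 and 1.49 FPKM in Control, 3.35 and 3.17 FPKM in Model, and 1.73 and 1.34 FPKM in MUS. Il33 was at 0.0758 and 0.136 FPKM in Control, 0.982 and 1.86 FPKM in Model, and 2.80 and 1.92 FPKM in MUS. All 3 were far below Il1a and Il1b, and their Model libraries were above Control. Only 1 of the 4 was called without Control replicate 1, Model replicate 2, MUS replicate 1 or MUS replicate 2. The receptor genes for IL-18, Il18r1 and Il18rap, stayed at or under 0.249 FPKM in every library.

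Of 16 genes for precursor processing and cytokine release, 14 were tested and 6 were called higher in Model vs. Control, with none lower and a median log2 fold change of 0.61. After TPM scaling 5 were called higher and 1 lower (median 0.11), and after quantile normalization 4 higher and 2 lower (median 0.41). Both voom and the fit with no trend called 6 higher and 1 lower. Nlrp3, the inflammasome sensor, was at 7.20 and 52.5 FPKM in Control, 167 and 205 FPKM in Model, and 309 and 271 FPKM in MUS. Casp1, which cleaves IL-1β and IL-18 precursors, was at 28.9 and 55.7 FPKM in Control, 300 and 211 FPKM in Model, and 285 and 226 FPKM in MUS. Both rose in Model vs. Control (log2 fold changes 3.15 and 2.62, limma adjusted p = 0.0351 and 0.00878), as did Casp4, at 3.03 (limma adjusted p = 0.0121), the sensor of intracellular LPS. Leaving out a Control library moved the log2 fold change of Nlrp3, Model vs. Control, to 1.80 without Control replicate 1 and 4.50 without Control replicate 2. Its call ended when any single Model or MUS library was left out, after quantile normalization, with no filter and with only the 2 groups compared, that of Casp1 without Model replicate 1 and with no filter, and that of Casp4 without Model replicate 1 or 2 and with no filter. Without Model replicate 1 a single gene of this list was called, and without Model replicate 2 there were 2. Panx1 and Ninj1 had negative log2 fold changes of -0.73 and -1.04 that did not pass the test. In MUS vs. Model none was called, and the values furthest from 0 were those of Txnip and Ninj1. Txnip, which encodes a thioredoxin-binding protein that can bind NLRP3, was at 59.6 and 47.7 FPKM in Model and 15.0 and 17.7 FPKM in MUS. The log2 fold change, -1.65 with a standard error of 0.27, was not called (limma adjusted p = 0.273). Nlrp3 was higher in MUS by 0.64 and Casp1 by 0.01 on the log2 scale (limma adjusted p = 0.880 and 0.995), neither past the test.

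Of 18 genes that carry the signal from the receptor, 17 were tested, and 4 were called higher and 1 lower in Model vs. Control (median log2 fold change 0.37, and -0.12 after TPM scaling). Peli1, a ubiquitin ligase, and Myd88, the adaptor, had log2 fold changes of 2.53 and 2.21. Peli1 was at 5.39 and 19.5 FPKM in Control and 70.8 and 59.8 FPKM in Model, and Myd88 was at 13.1 and 28.2 FPKM in Control and 108 and 79.6 FPKM in Model. Peli2 fell, from 4.43 and 1.81 FPKM in Control to 0.273 and 0.362 FPKM in Model, and it passed the filter on low values through Control alone. Without Model replicate 1 only 1 of these genes was called higher and none lower, without Model replicate 2, MUS replicate 1 or MUS replicate 2 there were 2 higher and 0 lower, and without Control replicate 1 none was lower. In MUS vs. Model none was called, and 11 of the 17 had positive and 6 negative log2 fold changes (median 0.07). Map3k7, which encodes the kinase TAK1, and Tab3, its partner, had the highest, at 0.53 and 0.37 (limma adjusted p = 0.726 and 0.743). Myd88 was at 51.5 and 60.9 FPKM in MUS, below both Model libraries (log2 fold change -0.71, limma adjusted p = 0.703), and Map3k8, a kinase of the same route, had a log2 fold change of -0.50 (limma adjusted p = 0.688).

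All 12 NF-κB subunit and feedback genes were tested, and 7 were called higher in Model vs. Control, with a median log2 fold change of 1.63. After TPM scaling 4 were called (median 1.11) and after quantile normalization 2 (median 1.21). Nfkbiz and Tnfaip3, a nuclear IκB protein and a deubiquitinase that restrains NF-κB, led the list at 3.83 and 3.29. The count was 0 without Model replicate 1, 1 without Model replicate 2 and 2 without either MUS replicate. With only the 2 groups compared it was also 2. The median log2 fold change was 1.68 and 1.67 without Model replicates 1 and 2 and stayed at 1.63 without a MUS replicate and with only the 2 groups compared. Without Control replicate 1 the count was 5 and the median 1.06, and without Control replicate 2 they were 10 and 2.64, so the size of these changes depended on the Control replicate. In MUS vs. Model 10 of the 12 had negative log2 fold changes and none was called (median -0.41, against 0.01 over all tested genes). Rel and Nfkb1, the remaining genes, were at 0.44 and 0.33. Rela, the main activating subunit, was at 98.1 and 68.0 FPKM in Model and 28.0 and 41.7 FPKM in MUS, and Bcl3, a co-regulator, was at 26.6 and 27.1 FPKM in Model and 7.83 and 13.6 FPKM in MUS. Their log2 fold changes of -1.23 and -1.30 did not pass the test (limma adjusted p = 0.463 and 0.546).

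Of 16 other LPS-induced cytokines and enzymes, 15 were tested and all 15 were called higher in Model vs. Control, with a median log2 fold change of 5.71. The median was 4.32 without Control replicate 1 and 7.07 without Control replicate 2, and 11 were called after quantile normalization and 10 with only the 2 groups compared. Il6 and Cxcl10 were the highest in this fit, at 8.82 and 8.47, beside 9.67 for Il1b. The order depended on Control replicate 1, without which the log2 fold change of Il6, Model vs. Control, was 8.44 and that of Il1b 7.42. The Control means of Il6, Il10 and Nos2 were under 1 FPKM, so these passed the filter on low values through the stimulated libraries. Il6 was at 0.0901 and 0.864 FPKM in Control, 917 and 454 FPKM in Model, and 716 and 436 FPKM in MUS. Tnf was at 1510 and 1034 FPKM in Model and 654 and 701 FPKM in MUS, with a Model vs. Control log2 fold change of 4.89 (limma adjusted p = 0.0330). Leaving out a Control library moved the log2 fold change of Tnf, Model vs. Control, to 2.77 without Control replicate 1 and 7.02 without Control replicate 2, and its call ended when any single Model or MUS library was left out, after quantile normalization, with no filter and with only the 2 groups compared. Without Model replicate 1, 7 of the 15 were called. In MUS vs. Model none was called, and 12 of 15 had negative log2 fold changes (median -0.20), while Il10 and Il12b were at 0.33 and 0.32. This count rested on single libraries, with 7 of 15 negative without Model replicate 1 (median 0.02) or without MUS replicate 2 (median 0.03), and 9 after quantile normalization. Il27 had the lowest, at -1.63 (limma adjusted p = 0.463), with 227 and 123 FPKM in Model and 45.9 and 61.7 FPKM in MUS. Tnf and Il6 were at -0.88 and -0.21 (limma adjusted p = 0.894 and 0.945).

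All 10 transcription factor genes in a list with known sites near Il1b, Il1rn or Il18bp were tested, and 3 were called higher in Model vs. Control, with a median log2 fold change of 0.71 over the list. Stat3 and Hif1a were among them, with log2 fold changes of 2.32 and 1.87. The call of Hif1a ended when any library but Control replicate 2 was left out, after TPM scaling and quantile normalization, with no filter and with only the 2 groups compared. Only 1 was called without Model replicate 1. The list had 2 genes called higher after TPM scaling, with a median of 0.18. It also had 2 after quantile normalization (median 0.57), where 3 of the 10 log2 fold changes were negative. Spi1, which encodes PU.1, was at 92.2 and 132 FPKM in Control and 196 and 158 FPKM in Model, and did not pass the test. In MUS vs. Model none was called, with 3 positive and 7 negative log2 fold changes (median -0.15), Atf3 the highest at 0.47. Cebpd, at 5.16 and 3.27 FPKM in Model and 0.689 and 1.04 FPKM in MUS, had the lowest log2 fold change, -1.47 (limma adjusted p = 0.380). With no filter on low values, limma called 0, 0, 1, 0, 6 and 1 genes higher in Model vs. Control in these 6 lists, in the order given. Without Control replicate 1 the counts were 1, 6, 3, 5, 15 and 2, and without Control replicate 2 they were 2, 6, 5, 10, 15 and 4.

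Genes with the most similar profile were found as the smallest root mean square difference from a member in mean-centred log2(FPKM + 1) over the 6 libraries. For Il1b these were Cxcl10 (0.579), Ptgs2 (0.743), Il6 (1.17), Cmpk2 (1.21) and Rsad2 (1.22), all at a wide distance. For Il1a they were Ms4a4c (0.161), Ifit3 (0.274), Ccl4 (0.312), Ifi205 (0.328) and Ifit2 (0.351). Ms4a4c was at 0.225 and 7.81 FPKM in Control and 299 to 400 FPKM in the stimulated libraries. For Il1rn they were Isg20 (0.112), Gm18445 (0.134), Mmp13 (0.143), Lcn2 (0.195) and Il10 (0.197), and for Il18 they were Irgm1 (0.0987), Ifi204 (0.140), Gm6377 (0.145), Mt2 (0.160) and Nt5c3 (0.173). The 5 nearest to Il18bp were Eif1a, Stx12, Ywhaz, Ptpn2 and Ly96 (0.0568 to 0.0635), to Il1r1 Dcp1a, Micall2, Tbc1d22b, Gm16675 and B4galt5 (0.0591 to 0.0895), and to Il1rap Map2k4, Stk39, Atp11b, Hspa8 and Ereg (0.0261 to 0.0855). Within a distance of 0.25 there were 0 other tested genes for Il1b, 1 for Il1a, 7 for Il1rn and 14 for Il18, but 542 for Il18bp, 626 for Il1r1 and 229 for Il1rap. This distance is not scaled and grows with the size of a change, so these counts do not show whether a profile is distinctive.

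Il1a and Il1b lie on the same strand of chromosome 2, and each overlaps a gene on the opposite strand. Gm14023 shares 8217 bases of span with Il1a and was at 0.491 and 1.23 FPKM in Control, 20.2 and 60.2 FPKM in Model, and 87.9 and 68.0 FPKM in MUS. Il1bos shares 1243 bases with Il1b and had 0 and 1 fragments in Control, with 182 and 138 in Model and with 277 and 182 in MUS. Both were higher in the stimulated libraries than in Control, at levels far below those of Il1a and Il1b. The sources used here do not say that the counting used strand, so fragments of overlapping genes cannot be told apart. Of the 50-base stretches in Il1a transcripts, 9.14% also occur in Gm14023 on the opposite strand, whereas none of those in Il1b transcripts occurs in another gene. Shared stretches were 3.98% for Il1rap (Gm20319), 0.968% for Il18bp (Numa1), 0.144% for Il1rn and 0 for Il18, Il1r1 and Il1r2.

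**Figure D3:**
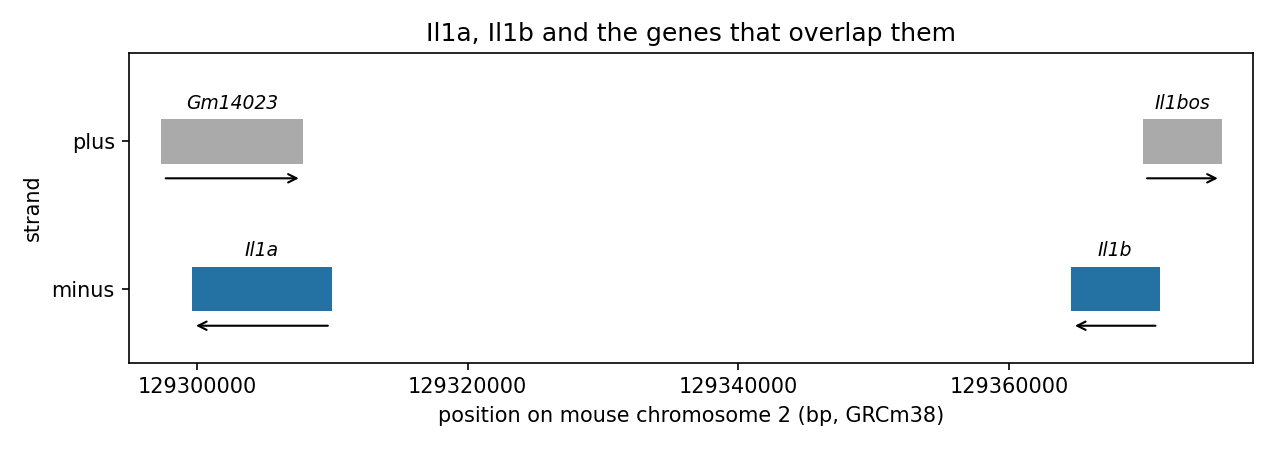
Map of Il1a and Il1b (blue) and the genes that overlap them (grey) on mouse chromosome 2, with the position in GRCm38 on the horizontal axis, strand on the vertical axis and arrows in the direction of transcription. Gm14023 runs against Il1a from 129297370 to 129307826, and Il1bos runs against Il1b from 129369897 to 129375748.

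The remaining overlaps involved weakly expressed genes, apart from Numa1. Tex12 and Bco2 overlap Il18 and stayed at or under 2.91 FPKM, and Gm20319, Gm38070, Gm37347 and Gm16894 had at most 9 fragments in any library. Numa1 shares 80 bases with Il18bp and was at 9.07 and 4.30 FPKM in Control and between 2.40 and 3.51 FPKM in the stimulated libraries, in the direction opposite to Il18bp.

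The bases before the start of transcription were searched because several members rose together. RefSeq lists 11 starts for the 8 members, 3 of them for Il1rn and 2 for Il1r1, and the 250 bases before each were read on both strands. The searches were for the κB consensus (by name), GAGGAA (PU.1 core), TTNCNNAA (C/EBP), TGANTCA (AP-1), TGACGTCA (CRE), TTCNNTTTC (IRF) and TATAAA (core promoter box). Of 32817 promoters of this length, these letters occur in 7.25%, 23.3%, 36.8%, 6.75%, 1.55%, 7.12% and 12.4%, in the same order. Among the 11 member windows, 1, 1, 7, 2, 0, 0 and 3 hold them. The windows of the later Il1rn starts overlap and share a C/EBP match, so the 11 windows are not independent. The TATAAA match of Il18 lies on the opposite strand, 175 bases before the start. The κB match lies at the second start of Il1r1, and neither Il1a nor Il1b has one in this window. Fragments are counted per gene, so use of the alternative starts was not resolved. A match describes letters and not a bound site.

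The windows of Il1b and Il1a, which rose most, and of the first start of Il1rn are printed 5′ to 3′ on the gene's strand, from RefSeq on GRCm38.p6, with matches in capitals. In Il1b (chr2:129371140-129371389, minus strand, upstream of the gene and inside the span of Il1bos) TATAAA begins 31 bases before the start, and a C/EBP match on the opposite strand begins 91 bases before it. In Il1a (chr2:129309973-129310222, minus strand, upstream of the gene) TATAAA begins 32 bases before the start and TGANTCA 12 bases before it, and the PU.1 core, 41 bases before the start, lies within a C/EBP match. In Il1rn (chr2:24336610-24336859, plus strand, upstream of the first start) TGANTCA begins 141 bases before the start.
Il1b: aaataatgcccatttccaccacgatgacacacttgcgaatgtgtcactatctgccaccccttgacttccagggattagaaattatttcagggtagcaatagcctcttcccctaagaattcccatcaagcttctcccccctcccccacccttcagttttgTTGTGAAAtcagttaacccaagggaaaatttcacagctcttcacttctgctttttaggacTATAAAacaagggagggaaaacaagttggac
Il1a: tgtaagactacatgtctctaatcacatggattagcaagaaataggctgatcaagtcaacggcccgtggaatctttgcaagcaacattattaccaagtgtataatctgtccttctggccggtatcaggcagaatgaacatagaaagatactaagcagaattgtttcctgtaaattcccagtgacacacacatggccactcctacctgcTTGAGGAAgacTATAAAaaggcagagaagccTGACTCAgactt
Il1rn: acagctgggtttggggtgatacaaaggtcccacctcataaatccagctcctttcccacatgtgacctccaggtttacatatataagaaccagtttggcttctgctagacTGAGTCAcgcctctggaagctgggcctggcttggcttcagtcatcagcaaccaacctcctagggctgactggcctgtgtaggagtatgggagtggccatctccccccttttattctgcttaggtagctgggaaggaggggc

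These values describe 2 libraries per group, and a member without a call may still differ by an amount that its interval leaves in. Comparisons with Control rest on a divisor that does not match the description in the methods and on Control replicates that stand apart. Scaling bears on the calls of Il18bp and Il1rap, and the choice of Control replicate on the size of the change in Il1b, Il1a and Il18. Without a group given LPS alone or muscone alone, LPS and ATP cannot be told apart, and muscone was tested only on top of both. RNA does not show precursor cleavage or release.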

How the data were processed

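RNA-seq measured poly-A RNA in 6 libraries, 2 in each of 3 groups, which were taken from the sample labels. The authors deposited FPKM per gene. The submitters' processing notes name HISAT2, featureCounts 1.5.0-p3 and GRCm39, whereas the study's methods name RSEM. Of 54409 gene identifiers shared with GENCODE M21, 98.33% have the same position there on GRCm38. The low values, where steps can be resolved, were all whole within a tolerance of 0.1 of a step (100% per library), and a count of 0 allows 3 fragments, between 0.131 and 0.213 FPKM at 1 kb. Of the library columns, 6 were used and 0 lacked a sample.

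The fit used limma 3.58.1 in R 4.3.3 (lmFit, contrasts.fit, eBayes with trend) on log2(FPKM + 1), two-sided, with 3 residual and 4.04 prior degrees of freedom. Intervals are 95% and, for shares of fragments, Wilson intervals. Python 3.11.15 made the tables (NumPy 2.4.6; pandas 2.3.3) and figures (Matplotlib 3.10.9). The code was tested on simulated data. The alternatives were another pseudocount, other filters, TPM, median-of-ratios and quantile scaling, voom on recovered fragments, no trend, fewer groups, a replicate block and leaving out each library.

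Replicate numbers equal the batch in the labels and so pair the libraries. Across genes, these replicate differences correlated at 0.12 for Control and Model, -0.09 for Control and MUS, and 0.14 for Model and MUS. The study names no block, so it was an alternative.

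Named genes are the 8 members, the 2 largest increases and decreases of each list against Control and against Model, Nlrp3, Casp1, Tnf and Il6, the 5 nearest profiles of each member and overlapping genes. The result for 1 gene of a list is not reported here. Others were named after their values were seen. Members and lists were chosen with earlier results of these data known. No set test was run.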

Additional observations from a re-analysis of the deposited data

How the results depend on the processing

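Il1b, Il1a, Il18 and Il1rn kept their direction against Control in all 16 alternatives, and Il1rn its call. With no filter on low values, 1 member was called in Model vs. Control and 3 in MUS vs. Control (all genes: 260 and 456). Fits of only the 2 groups compared called 797 genes in Model vs. Control and 7 in MUS vs. Model, and a pseudocount of 0.1 called 1 in the latter. The replicate block called 4 genes there and changed no call of a member in any comparison. Leaving out 1 library, members called ranged from 4 to 6 in Model vs. Control, stayed at 0 in MUS vs. Model and ranged from 1 to 6 in MUS vs. Control, and all genes called from 692 to 2077, 0 to 31 and 184 to 2398. A group left with 1 library was assumed to vary like the others.

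In MUS vs. Model the log2 fold change of Il1b was 0 after quantile normalization and that of Il1f6 0.037 after TPM scaling. Leaving out 1 library, it ranged from -0.50 to 0.19 for Il1b, -0.22 to 0.26 for Il1a, -0.060 to 0.35 for Il1rn, -0.14 to 0.52 for Il18, -0.13 to 0.21 for Il18bp, -0.17 to 0.27 for Il1r1, -0.24 to 0.14 for Il1f6, -0.015 to 0.68 for Il10, -0.24 to 0.27 for Casp1 and -0.71 to 0.30 for Il6. The log2 fold change of Irf4, MUS vs. Model, was -0.0065 without Model replicate 1 and 0.31 without Model replicate 2. The sign of these was not stable, and none was called. The cause of these changes was not tested. Depth limits Il1r2, with at most 10 fragments in a library.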
